A study of Homo sapiens with 6 samples.

Results

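The Notch receptors NOTCH1, NOTCH2, NOTCH3 and NOTCH4, the ligands JAG1, JAG2, DLL1 and DLL4, and the target genes HES1 and HEY1 were examined in human pancreatic cancer xenografts treated with oral deferasirox (DFX), an iron chelator. The 10 genes were chosen by symbol, as every non-control probe whose gene name on the array equals one of these symbols. They were represented by 12 of the 50599 probes and are 10 of the 34423 gene names on the array. Of these, 11 probes of 9 genes passed the detection filter and were tested, among 31807 tested probes of 22718 genes. The remaining probe, that of DLL4, did not pass.

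The 6 tumors were hybridized, 1 per one-color human 60-mer array. All 6 were subcutaneous xenografts of BxPC-3, a single human pancreatic adenocarcinoma cell line, in adult female BALB/c (nu/nu) nude mice, which lack T cells and keep other host cells. The control group was 3 tumors from mice given saline vehicle alone, and the DFX group was 3 tumors from mice gavaged with 200 mg/kg DFX in saline every second day, with 3 doses a week, for 21 days. The question was whether the drug changed gene expression in the excised tumors. Because whole tumors were used, fewer cells of a type and less RNA per cell cannot be told apart, and mouse RNA may also have bound the human probes. Values are log2 of the background-subtracted intensity after quantile normalization. A difference is DFX minus control, a probe was counted as called at an unadjusted p under 0.05 in limma, and adjusted p-values are over all tested probes. Between 53.9% and 56.5% of probes were well above background on 5 arrays and 50.3% on that of DFX tumor 2, and the number of arrays limits the precision. All arrays lay on 1 slide, with the controls in 1 row and the DFX tumors in the other, so row and treatment cannot be told apart.

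Notch receptors are single-pass membrane proteins that are cleaved when a Jagged or Delta-like ligand on a neighboring cell binds them. The released intracellular domain enters the nucleus, binds the DNA-binding protein RBPJ and its coactivator Mastermind, and turns on genes such as HES1 and HEY1, which encode transcriptional repressors. In the pancreas, Notch signaling keeps progenitor cells from differentiating in the embryo and is reactivated in acinar-to-ductal metaplasia and ductal adenocarcinoma. The arrays measured transcripts and not receptor cleavage, so transcripts of target genes such as HES1 and HEY1 are the nearest readouts of pathway output in these data.

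Printed here are the 250 bases upstream of the HES1 start in RefSeq (GRCh38.p14, chr3:194135898-194136147, plus strand), shown because HES1 is the classical promoter bound by the Notch complex. Capitals mark the letters TGGGAA, the core of the motif that RBPJ binds, searched on both strands (TTCCCA on the other).
HES1 upstream window: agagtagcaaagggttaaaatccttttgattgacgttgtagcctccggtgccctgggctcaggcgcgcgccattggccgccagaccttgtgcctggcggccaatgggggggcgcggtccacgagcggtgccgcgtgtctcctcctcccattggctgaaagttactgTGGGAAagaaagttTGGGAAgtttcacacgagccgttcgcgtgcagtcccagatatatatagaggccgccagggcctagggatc
The motif was found at 2 places, starting at -84 and -70 from the transcript start, 14 bases apart. Among the 8 of the 10 genes whose upstream windows were examined (NOTCH1, NOTCH2, NOTCH3, NOTCH4, JAG1, JAG2, DLL4 and HES1), the window of HES1 was the 1 that held it. The windows of DLL1 and HEY1 were not examined, so nothing is said here of HEY1, the other target among the 10 genes. For comparison, 20.8% of 35116 RefSeq windows of the same length held TGGGAA, and 5.43% held the longer form GTGGGAA, which contains it. Among the other genes listed as targets, the windows of HEYL and HES5 held 2 matches each, those of HES4 and HEY2 held 1, and those of NRARP, HES2, HES6 and HES7 held 0. A match describes these letters alone.

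The next sequences are 60-base array probes, shown because the readings rest on them. The HES1 probe is the single readout of HES1. The second NOTCH1 probe ends in a stop codon, and the second NOTCH2 probe is annotated to a transcript of NOTCH2NL as well. They are in lower case throughout.
HES1 probe: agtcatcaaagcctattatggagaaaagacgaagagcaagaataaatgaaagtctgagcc
NOTCH1 probe 2: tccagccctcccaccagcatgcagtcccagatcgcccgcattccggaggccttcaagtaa
NOTCH2 probe 2: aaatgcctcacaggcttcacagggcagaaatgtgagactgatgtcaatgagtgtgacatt
On hg19, the build of the array annotation, the HES1 probe covers chr3:193854276-193854463 on the plus strand, a span of 188 bases of which 128 are not in the probe. NOTCH1 probe 2 lies at chr9:139390523-139390582 and NOTCH2 probe 2 at chr1:120539807-120539866, both on the minus strand.

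NOTCH1, NOTCH2, NOTCH3 and NOTCH4, the 4 receptors, gave no called probe among 6, where 8.41% of all tested probes were called. NOTCH1, the receptor most studied in epithelial and T cell cancers, was measured with 2 probes. Probe 1, at chr9:139389764-139389823 and downstream of probe 2 along the transcript, read 8.12, 8.43 and 7.98 in control tumors 1 to 3 and 8.25, 8.37 and 8.28 in DFX tumors 1 to 3. All 3 DFX values lay inside the range of the controls. The difference was 0.12 ± 0.14 (SE, n = 3 per group; 95% confidence interval -0.23 to 0.47; adjusted p = 0.827). Probe 2 read 9.84, 9.89 and 9.58 in the controls and 10.07, 9.995 and 9.66 in the DFX tumors. Here DFX tumors 1 and 2 were above every control, while DFX tumor 3 was below controls 1 and 2, and the groups overlapped. The difference was 0.14 ± 0.16 (-0.24 to 0.52; adjusted p = 0.817), and both intervals include 0. Without control 3 the differences were 0.025 and 0.046.

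NOTCH2, a widely expressed receptor, was also read by 2 probes, and these differed in sign. Probe 1, at chr1:120454858-120454917, read 12.45, 12.18 and 11.61 in the controls and 12.14, 12.19 and 12.45 in the DFX tumors. Control 3 was the lowest tumor, and without it the difference of 0.18 ± 0.23 (-0.39 to 0.75; adjusted p = 0.843) became -0.054. Probe 2 read 9.97, 9.59 and 9.49 in the controls and 9.40, 9.63 and 9.56 in the DFX tumors, a difference of -0.15 ± 0.16 (-0.54 to 0.24; adjusted p = 0.807). Control 1 was its highest tumor, the groups overlapped, and without control 1 the difference was -0.0067. Since probe 2 is shared with NOTCH2NL, a human-specific partial copy of NOTCH2, its signal cannot be assigned to one gene. The 3 probes named for NOTCH2NL gave differences of 0.03, -0.19 and -0.04 (adjusted p = 0.973, 0.795 and 0.955).

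NOTCH3, a receptor of vascular smooth muscle and pericytes that carcinoma cells also express, varied most between tumors of 1 group among the 12 probes. Its probe (chr19:15270489-15270548) read 10.74, 10.96 and 11.98 in the controls and 10.37, 11.34 and 10.37 in the DFX tumors. Control 3 was highest, DFX tumors 1 and 3 lay below every control, and DFX tumor 2 lay among the controls. The difference of -0.53 ± 0.42 had an interval from -1.55 to 0.48 (adjusted p = 0.739), the widest of the 11, and it ranged from -0.86 to -0.16 as each tumor was left out in turn. NOTCH4, known chiefly from endothelial cells (chr6:32162624-32162683), read 5.93, 6.01 and 5.93 in the controls and 5.91, 5.99 and 5.56 in the DFX tumors. DFX tumor 3 stood below the other 5, which lay close together. The difference was -0.14 ± 0.14 (-0.49 to 0.21; adjusted p = 0.804). It was -0.006 without DFX tumor 3, -0.049 under 75th percentile scaling and -0.034 with normexp background correction.

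**Figure D1:**
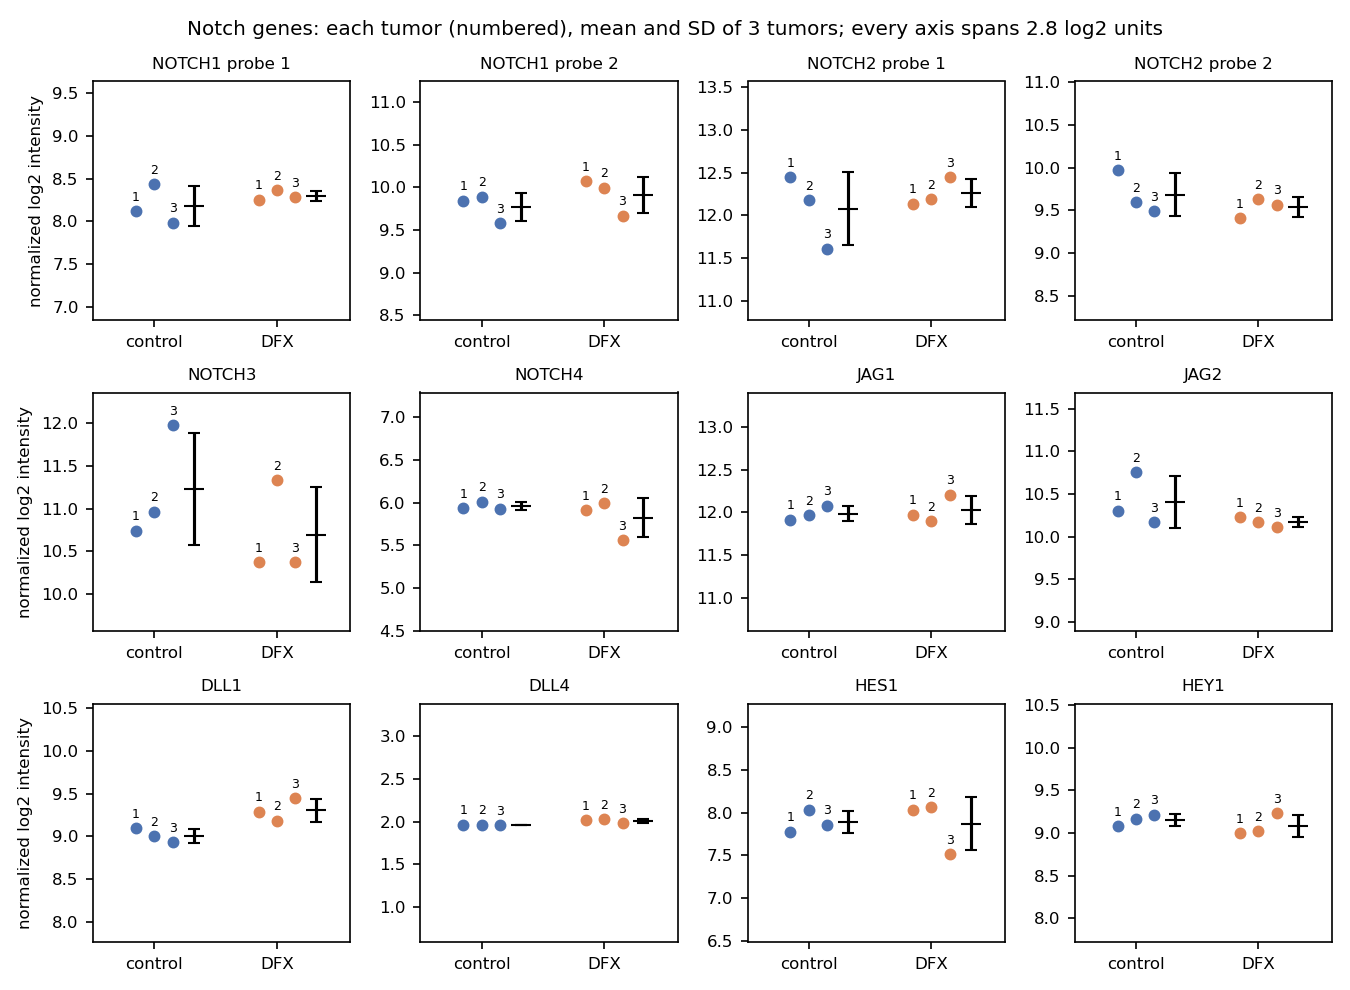
Normalized log2 intensity (vertical axis) of each of the 12 probes in 3 control (blue) and 3 DFX (orange) tumors, numbered by replicate; black marks give the mean and SD, and all panels have the same height in log2 units. The 2 groups are apart for DLL1 and, well under the array background, for DLL4, and they overlap for the other 10 probes.

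Among the ligands, 1 of 3 tested probes was called, that of DLL1, where 8.41% of all tested probes were called. Nothing particular to the ligands is drawn from so few probes. JAG1, the Jagged ligand best known from biliary and vascular development (chr20:10619061-10619120), read 11.91, 11.96 and 12.08 in the controls and 11.97, 11.89 and 12.20 in the DFX tumors. The groups overlapped over a narrow range, and the difference of 0.04 ± 0.12 (-0.27 to 0.34; adjusted p = 0.943) turned to -0.072 under median scaling. JAG2, the second Jagged ligand (chr14:105608674-105608733), read 10.30, 10.75 and 10.17 in the controls and 10.23, 10.17 and 10.11 in the DFX tumors. Control 2 stood above the other 5 tumors. The difference was -0.24 ± 0.17 (-0.66 to 0.18; adjusted p = 0.724), and it was -0.07 without control 2.

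JAG2 and the first NOTCH1 probe were each printed as 10 spots on every array, so both the spread between spots and the spread between tumors can be given. For JAG2 the SD of the spots within an array was 0.026 to 0.068, and the SD between tumors was 0.305 in the controls and 0.057 in the DFX group. For NOTCH1 the spots had an SD of 0.065 to 0.149 within an array, against 0.231 between control tumors and 0.058 between DFX tumors. The spot SD is of single spots and the tumor SD is of array means, and the spots measure technical noise alone.

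**Figure D2:**
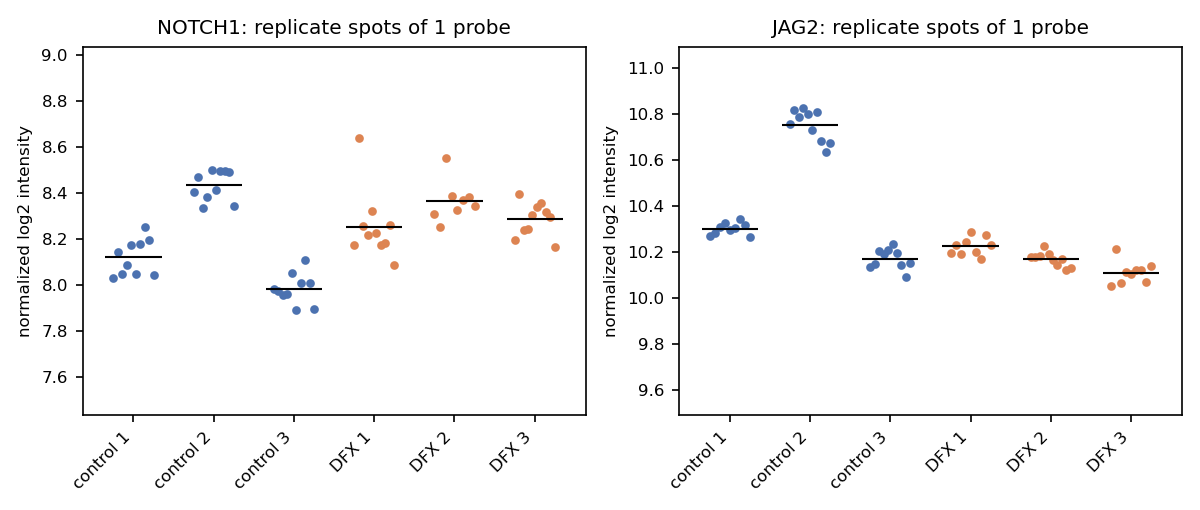
Normalized log2 intensity of the replicate spots of 1 NOTCH1 probe (left) and the JAG2 probe (right) on each array, controls in blue and DFX in orange; each point is a spot that was kept and the line is the array mean. All JAG2 spots of control 2 lie above those of the other 5 arrays, around a mean of 10.75.

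DLL1, a Delta-like ligand of progenitor and secretory cells (chr6:170591642-170591701), was the called gene. It read 9.09, 8.998 and 8.93 in the controls and 9.29, 9.18 and 9.44 in the DFX tumors. Each DFX tumor was above each control. The difference was 0.30 ± 0.12 (0.01 to 0.58), a level 1.23-fold that of the controls or 22.9% higher, called at an unadjusted p under 0.05 but with adjusted p = 0.582. An exact permutation test (two-sided) gave p = 0.1, the smallest that 3 tumors against 3 allow. The unadjusted p passed 0.05 with DFX tumor 2 left out but missed it with any 1 of the other 5 tumors left out, where the difference was 0.23 to 0.34. It also missed under 75th percentile scaling (0.30), under median scaling (0.20) and with the replicate block (0.30). DLL4, the Delta-like ligand of sprouting vessels (chr15:41229655-41229714), read 1.96, 1.97 and 1.96 in the controls and 2.02, 2.03 and 1.98 in the DFX tumors. It was well above background on 0 of 6 arrays, below the lowest such signal of each array (3.84 to 4.69), and therefore has no test and no fold.

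Over the 6 tumors, the genes whose log2 values followed DLL1 most closely were a transcript with no gene symbol (Pearson r = 0.998), TOMM20L (r = 0.995) and SCAF8 (r = 0.992), chosen from the 23607 probes of other genes that had a gene name and stood well above background in every tumor. With 6 points many probes reach such values, and 80 exceeded r = 0.95. All points share the same 6 arrays and their normalization, and these correlations are a description.

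The target genes HES1 and HEY1 gave no called probe, where 8.41% of all tested probes were called. HES1 read 7.78, 8.03 and 7.86 in the controls and 8.04, 8.07 and 7.51 in the DFX tumors. DFX tumors 1 and 2 were slightly above every control, and DFX tumor 3 was below every control. The difference was -0.02 ± 0.18, with an interval from -0.47 to 0.43 (adjusted p = 0.985). Without DFX tumor 3 it was 0.16, without control 2 it was 0.053 and with array weights 0.031, so it has no settled sign. HEY1, the second target, read 9.08, 9.17 and 9.21 in the controls and 8.99, 9.02 and 9.23 in the DFX tumors. DFX tumors 1 and 2 were below every control and DFX tumor 3 above every control. Its difference was -0.07 ± 0.11 (-0.35 to 0.21; adjusted p = 0.876), negative in each of the 18 alternatives tried.

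Among all 11 tested probes of the 10 genes, 1 (9.09%) was called, against 8.41% of all tested probes. The groups did not overlap for 1 of the 11, against 15.5% of all tested probes. Both shares are near or below the background and are not a result about these genes. The adjusted p-values ran from 0.582 to 0.985, and 0 of the 31807 tested probes passed at an adjusted p under 0.05 (lowest 0.0675), against 2675 at an unadjusted p under 0.05. Differences were positive for 5 probes and negative for 6. Their median was -0.02, as was that of all tested probes, and the median size was 0.141 against 0.159 over all. Standard errors were 0.114 to 0.416, and the intervals show which sizes remain compatible with each gene. They reached past a log2 difference of 1 for NOTCH3 alone.

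**Figure D3:**
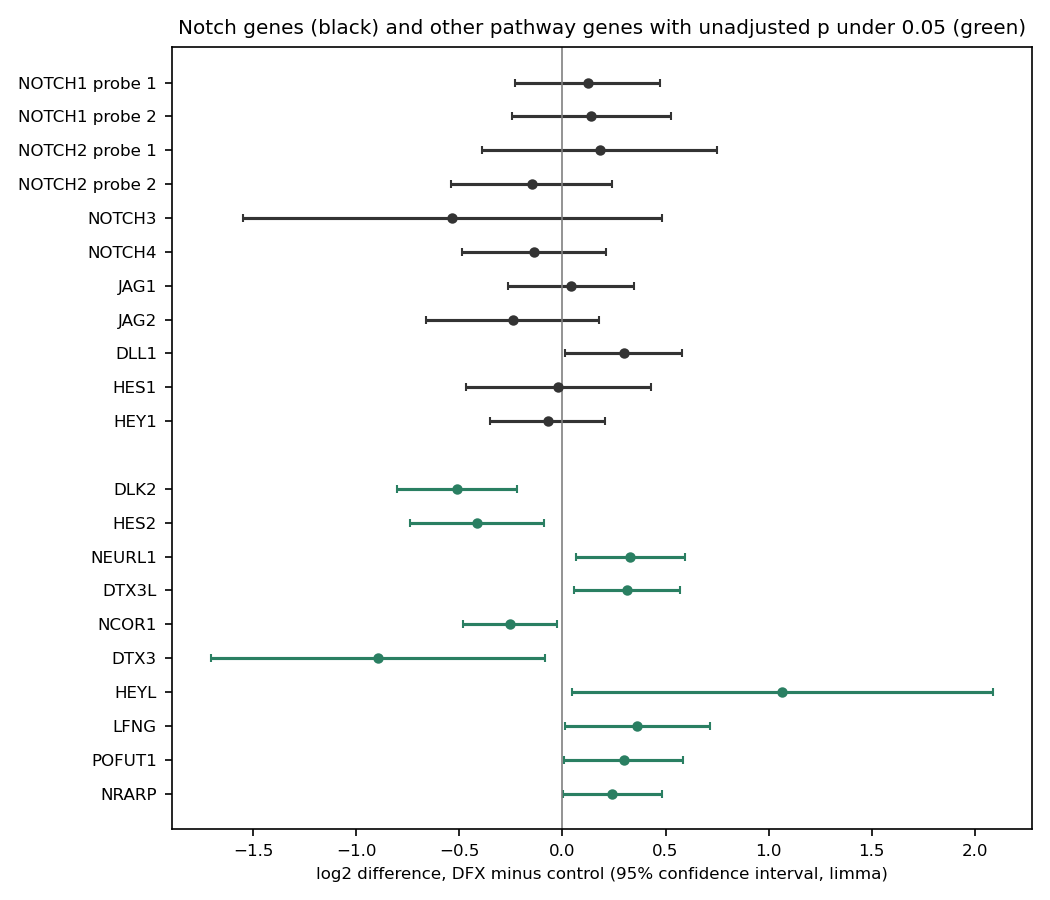
Log2 difference, DFX minus control, with its 95% confidence interval from limma (horizontal axis) for the 11 tested probes of the 10 genes (black) and for 10 of the 11 called genes of the remaining pathway list (green; HEY2, above background on no array, is left out). Among the black intervals, that of DLL1 (0.01 to 0.58) excludes 0, and that of NOTCH3 is the widest.

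A further 60 genes of the pathway were examined, among them the proteases, glycosyltransferases, ubiquitin ligases, transcription factors and genes listed as further targets. Of these, 57 were tested with 90 probes, and 11 genes (19.3%) had a called probe, against 10.8% of all tested genes. Of the 11, 7 were higher in DFX tumors, 12.3% of the 57 against 4.45% of all tested genes, and 4 were lower, 7.02% of the 57 against 6.4%. By the brightest probe of each gene 8 of 57 (14%) were called, against 7.98% of all, and the median difference was 0.01 against -0.01 over all tested genes. None passed adjustment, with adjusted p-values from 0.513 to 0.588 among the 11, and nothing particular to the list is drawn from these counts. The count was 7 under 75th percentile scaling, 6 with the replicate block and 4 to 5 with each tumor left out in turn.

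Among the steps that act on the receptor, LFNG, the fringe enzyme that extends O-fucose on Notch, was higher on its brighter probe. That LFNG probe read 12.33, 12.15 and 12.25 in the controls and 12.83, 12.59 and 12.39 in the DFX tumors, without overlap, a difference of 0.36 ± 0.14 (adjusted p = 0.584). Its other probe gave -0.01 (adjusted p = 0.990). POFUT1, which adds that fucose, was called on a dim probe (0.30, adjusted p = 0.585) that was well above background in 2 tumors of each group. That probe gave 0.067 with normexp correction and 0.046 on the raw mean signal, without a call. Both settings compress log2 differences of dim probes. The brighter POFUT1 probe gave 0.07 (adjusted p = 0.898). The sheddases ADAM10 and ADAM17, FURIN and the 6 gamma-secretase genes, which cut the receptor, had 0 called probes. Of all tested probes 8.41% were called, and nothing particular to these proteases is drawn from so few.

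DLK2, a noncanonical ligand that lacks the receptor-activating domain of the Delta and Jagged proteins, was the pathway gene of lowest p. It read 12.34, 12.39 and 12.62 in the controls and 12.01, 11.92 and 11.88 in the DFX tumors. Every DFX tumor was below every control. The difference was -0.51 ± 0.12, a level 0.701-fold that of the controls (adjusted p = 0.513), and DLK2 stayed under 0.05 unadjusted in all 18 alternatives, where the difference was -0.63 to -0.43. DLK1, its paralog, gave -0.25 on its tested probe (adjusted p = 0.654). Its other probe did not pass the detection filter. That probe read 7.70 in DFX tumor 1, against 2.89 and 2.27 in DFX tumors 2 and 3 and 2.19, 2.31 and 3.63 in the controls.

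Of 16 probes for endocytic factors and ubiquitin ligases, 3 were called, where 8.41% of all tested probes were called. Nothing particular to this role is drawn from so few probes. NEURL1, a ligase that promotes ligand endocytosis, was 10.38, 10.53 and 10.36 in the controls and 10.67, 10.83 and 10.76 in the DFX tumors, a difference of 0.33 ± 0.11 (adjusted p = 0.553) without overlap. DTX3L, a Deltex family ligase, was higher by 0.31 ± 0.10 (adjusted p = 0.554), also without overlap. DTX3, another Deltex protein, was lower by a difference of -0.89 ± 0.33 (adjusted p = 0.578), but its probe was well above background in only 2 controls and 1 DFX tumor and the groups overlapped. With normexp correction and its offset of 50 the DTX3 difference was -0.20, and on the raw mean signal, which keeps the background, -0.17. Both settings compress log2 differences of dim probes by construction. The call was lost in 12 of 17 alternatives, and the size of the difference is not settled. The 13 probes of the transcription complex had 0 called, with both RBPJ probes at -0.13 and 0.07 (adjusted p = 0.787 and 0.881). Of 27 corepressor probes 1 was called, a probe of NCOR1 at -0.25 ± 0.09 (adjusted p = 0.575), and the brighter NCOR1 probe gave 0.07 (adjusted p = 0.883).

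Genes listed as further targets (NRARP and HES and HEY family members) had 13 probes. Of these, 3 were called higher and 1 lower, where 8.41% of all tested probes were called. Whether each of these genes responds to Notch in these tumors was not tested. Nothing particular to this group is drawn from so few probes. NRARP, a target that feeds back to limit Notch signaling, was 13.23, 13.27 and 13.21 in the controls and 13.40, 13.49 and 13.54 in the DFX tumors. The groups did not overlap, and the difference was 0.24 ± 0.10 (adjusted p = 0.588), which missed 0.05 in 11 of 18 alternatives. HEYL, a HEY1 relative, was 4.20, 5.55 and 4.73 in the controls and 5.27, 6.23 and 6.17 in the DFX tumors. DFX tumor 1 was below control 2, and the difference was 1.07 ± 0.42 (adjusted p = 0.583). The HEYL difference was 0.36 with normexp background correction and 0.34 on the raw mean signal, settings that compress differences of dim probes. It kept its call under both. The call was lost in 8 of 18 alternatives, among them array weights. HEY2 was called (adjusted p = 0.585) but was well above background on no array, so no fold is given. HES2 was lower on 1 of 3 probes, by a difference of -0.41 ± 0.13 (adjusted p = 0.546), and its other probes gave -0.08 and -0.03. HES4, HES5, HES6 and HES7, the remaining HES genes on the list, had 0 called.

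**Figure D4:**
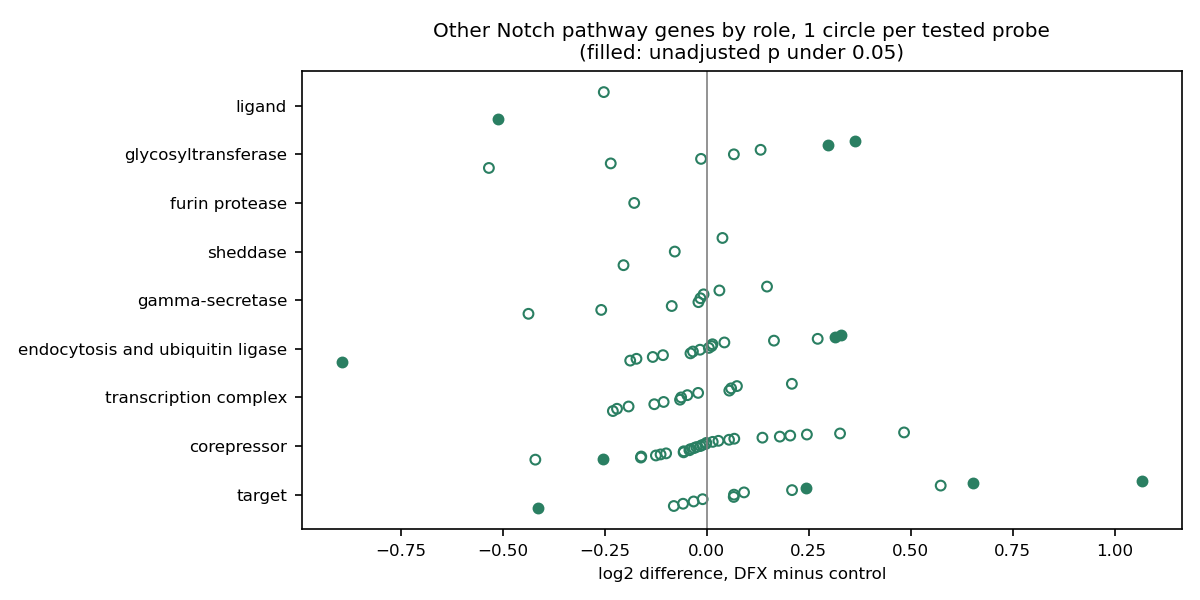
Log2 difference, DFX minus control (horizontal axis), of the 90 tested probes of the remaining Notch pathway list, by role of the gene; 1 circle is 1 probe, and filled circles had an unadjusted limma p under 0.05. Called probes lie on both sides of 0, and the outermost, HEYL and DTX3, have low signals. On the raw mean signal, which keeps the background and so compresses dim probes, their values were 0.34 and -0.17.

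Markers of the cell types a xenograft can hold were read beside these genes, as the summed linear intensity of the brightest probe of each listed gene. The human cells injected were BxPC-3 alone, so endothelial, mural, fibroblast and leukocyte cells of the host are mouse cells. The human probes may read tumor cell transcripts or bound mouse RNA, so these sums cannot be read as amounts of host cells. Of all tested genes 10.8% had a called probe, and nothing particular to a marker list is drawn from its few genes. The epithelial markers EPCAM, CDH1, KRT7 and KRT19 were well above background on all arrays, as were all 7 epithelial genes listed. Of these 7, EPCAM was higher by 0.43 (adjusted p = 0.514), while KRT8 was higher on 1 of 3 probes (0.48, the others 0.24 and -0.12) and KRT18 on 1 of 2 (0.27, the other 0.15). CDH1 (0.06), KRT7 (-0.17), KRT17 (-0.06) and KRT19 (0.02) were not called. The sum was 659000 to 673000 in the controls and 672000 to 690000 in the DFX tumors. It was carried mostly by KRT19, which read 18.44 to 18.54 in both groups. At such high ranks quantile normalization repeats values across arrays. Of 7 tested endothelial genes, of interest for NOTCH4 and DLL4, PECAM1 was higher on 3 probes (1.27 on the brightest, adjusted p = 0.504), of which 1 was well above background on 0 control arrays and 1 DFX array. TIE1 was lower (-0.78, adjusted p = 0.570), VWF gave -0.58 on its brightest probe and -0.14 on another (adjusted p = 0.667 and 0.803), and CDH5 gave -0.09. TEK was well above background in 2 DFX tumors and 0 controls and did not pass the detection filter, and KDR was above background on no array. The endothelial sum was 1120 to 1570 in the controls and 1200 to 1260 in the DFX tumors, and 6 of the 13 listed genes were above background on no array. That sum was carried mostly by VWF and EGFL7 (0.30, adjusted p = 0.649). Of the mural list, of interest for NOTCH3, 0 of 4 tested genes were called, with CSPG4 at 0.28 and 0.03 and RGS5 at 0.06 and -0.69 on their tested probes. PDGFRB was above background on no array, and the sum was 889 to 1080 against 870 to 1220. DES (-0.05, adjusted p = 0.951) carried most of the mural sum.

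Of 6 fibroblast genes, DCN (-1.30) and PDGFRA (-1.12) were lower and LUM (0.87) higher, while the defining markers COL1A1, COL1A2 and COL3A1 were not called. The fibroblast sum was 11900 to 19300 in the controls and 10500 to 13200 in the DFX tumors. Of 6 tested leukocyte genes, including PTPRC, CD68 and CD14, 0 were called, where 10.8% of all tested genes were. The leukocyte sum was 4690 to 6900 against 5060 to 6080. That sum was carried mostly by CD79A, which read 12.17, 12.07 and 11.39 in the controls and 11.80, 11.91 and 11.38 in the DFX tumors. Intestinal lineage lists were read because Notch sets the balance of secretory and absorptive cells in the gut. Of 5 tested secretory genes, GFI1 was lower (-0.41) and SPDEF gave 0.29, while ATOH1, a factor that HES1 represses, was above background on no array. NEUROG3, of the same list, read 10.52, 10.38 and 10.42 in the controls and 10.38, 10.39 and 9.97 in the DFX tumors (-0.19, adjusted p = 0.737). MUC2 was higher on 1 of 4 probes (0.62), where the groups overlapped. Its brightest probe gave -0.18 and the others -0.15 and -0.10. The secretory sum was 41300 to 192000 in the controls and 164000 to 198000 in the DFX tumors, carried mostly by TFF3, whose brightest probe read 15.20 in control 3 and 17.23 to 17.57 in the other 5 tumors. Of 2 tested stem cell genes, OLFM4 was higher (1.53, adjusted p = 0.514) and ASCL2 gave -0.12, LGR5 was above background on no array, and the sum was 3930 to 5080 against 4770 to 5280. The part of these markers in the differences of DLL1 and of the pathway genes was not tested. KRT8, KRT17, KRT18, EGFL7, DES, DCN, PDGFRA, LUM, CD79A, GFI1, NEUROG3 and TFF3 were named after their values were seen.

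**Figure D5:**
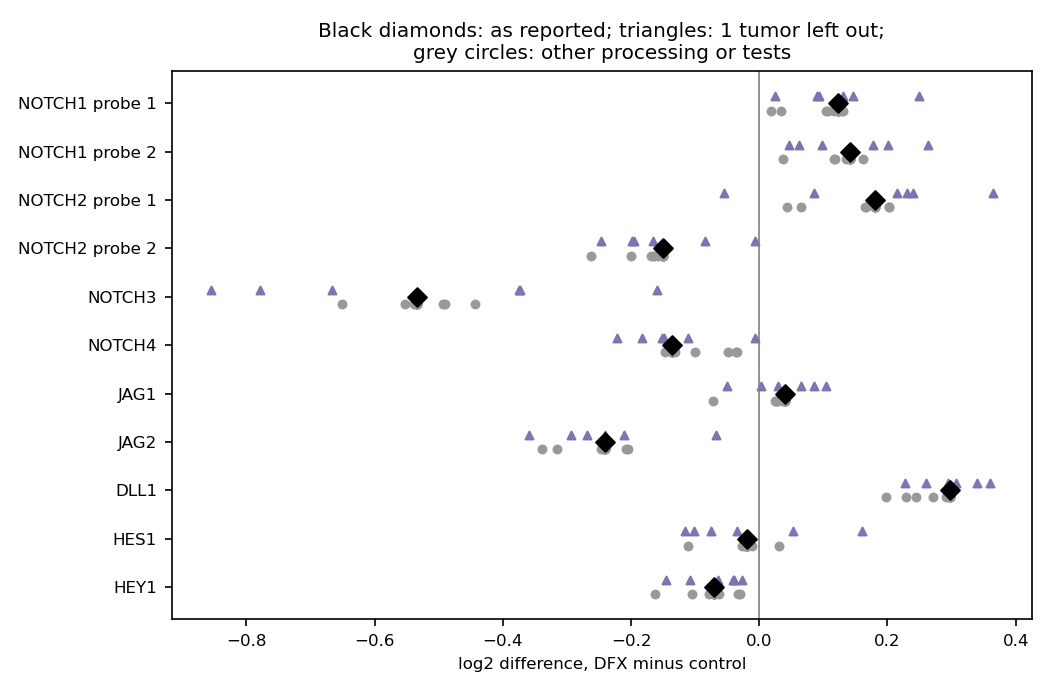
Log2 difference, DFX minus control (horizontal axis), of each tested probe of the 10 genes as reported (black diamond), with 1 tumor left out (triangles) and under other processing or tests (grey circles). All values of DLL1 lie above 0, between 0.20 and 0.36, and those of JAG1, HES1 and the first NOTCH2 probe lie on both sides of 0.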

How the data were processed

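Tumor RNA was Cy3-labeled and hybridized to Agilent 60-mer arrays. The authors deposited scanner intensities per spot, written by Feature Extraction 10.7.1.1 per the file headers (9.5.1.1 in the submitters' processing notes), and a p-value of each spot against background, not normalized between arrays. They also deposited a table of normalized linear intensity values (median 30.32 on each array), which was used as an alternative; it differed by a median of 0.185% from quantile normalization of the linear processed signal.

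The methods name log2 transformation and quantile normalization of raw signal intensities and not the signal column. Here the background-subtracted processed signal of 58717 non-control spots was transformed and normalized in that way, with the raw mean signal as an alternative. After this, 1398 flagged spot values were left out, spots were averaged per probe, and probes were kept if the median p-value of their spots against background was under 0.05 on each of the 6 arrays. No spot was saturated. Correlations between arrays were 0.980 to 0.990. Groups, taken from the labels, were tested in limma 3.58.1 (lmFit, eBayes; R 4.3.3; prior degrees of freedom 2.04), two-sided, with Benjamini-Hochberg adjustment. The methods do not name the test behind the array threshold. The labels tie each sample to a removed tumor, and p-values measure the spread between these tumors. Every probe was kept, and a gene was called where at least 1 of its probes passed.

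The members, the pathway list and the 7 marker lists were chosen with earlier results of these data known. Named were all members, called pathway genes (up to 12), defining markers, and the 3 genes most correlated with the member of lowest p. NEURL1 is listed as NEURL on the array and was matched through its RefSeq synonym. On simulated data for this comparison (31803 probes, 200 changed), 86% of changes of 1 and 99% of changes of 2 on the log2 scale were recovered and 5.37% of unchanged probes were called. Alternatives covered normalization, background correction, signal column, filters, flags, the test, the replicate block, array weights, probe choice and each tumor left out. Probe positions are those of the hg19 array annotation, and exon or UTR annotation of that build was not used here.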

Additional observations from a re-analysis of the deposited data

How the results depend on the processing

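The differences of both NOTCH1 probes, the second NOTCH2 probe, NOTCH3, NOTCH4, JAG2 and HEY1 kept their sign and stayed above 0.05 unadjusted in all 18 alternatives, some at values near 0. With a tumor left out, the NOTCH1 probes ranged from 0.025 to 0.25 and 0.046 to 0.26, the second NOTCH2 probe from -0.25 to -0.0067, NOTCH3 from -0.86 to -0.16, NOTCH4 from -0.22 to -0.006, JAG2 from -0.36 to -0.068 and HEY1 from -0.15 to -0.028. The call of DLL1 kept its sign and was lost in 8 of 18: 0.30 under 75th percentile scaling, 0.20 under median scaling, 0.30 with the replicate block, and with 5 of the 6 tumors left out in turn (range 0.23 to 0.36 over all 6). The count of called probes among the 10 genes was therefore 0 under 75th percentile scaling, median scaling and the replicate block, and 0 to 1 with a tumor left out. JAG1 turned to -0.072 under median scaling and ranged from -0.051 to 0.10 with a tumor left out; HES1 turned to 0.031 with array weights and ranged from -0.12 to 0.16; the first NOTCH2 probe ranged from -0.054 to 0.36. The remaining pathway genes with a call numbered 7 under 75th percentile scaling, 6 with the replicate block and 4 to 5 with a tumor left out, against 11. DLK2 kept its call throughout, and each of the other 10 lost it in 3 to 12 alternatives without a change of sign. Of all probes, 4927 passed the Kruskal-Wallis test named in the methods for in vivo experiments, whose approximate p passes 0.05 where groups of 3 do not overlap, against 2675, and 1889 to 2717 passed with a tumor left out. Lower calls were 58.8% of all calls, 42.6% under 75th percentile scaling and 71.8% under median scaling, under which the median over tested probes was -0.10. The cause of these changes was not tested; leaving out a tumor also leaves fewer samples. An exact permutation test of 3 against 3 cannot go below p = 0.1. Same-numbered tumors did not deviate together (correlations 0.0274, 0.0267 and 0.0158), so the numbers were not taken as pairs; the replicate block gave 2419 called probes. With normexp correction and on the raw mean signal, HEYL was 0.36 and 0.34 against 1.07, DTX3 -0.20 and -0.17 against -0.89, and POFUT1 0.067 and 0.046 against 0.30. Both settings compress log2 differences of dim probes by construction. For DLL4, HEY2 and these low-signal probes the signal over background limits what can be read.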
